A study of Homo sapiens with 3 samples.

Results

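The amino acid transporter families examined here are 7 families of solute carrier (SLC) genes: SLC1, SLC3, SLC6, SLC7, SLC36, SLC38 and SLC43. Members were all protein-coding genes of the deposited table whose symbol is 1 of these family names followed by A and a number, which gave 54 of 29960 genes. The cells were 5637, an established line from a human bladder cancer, grown without treatment in RPMI medium with serum. Parental cells (5637P) were compared with a gemcitabine-resistant derivative (5637GR), which had been made by repeated exposure to gemcitabine, a nucleoside analog used in chemotherapy, and was then kept without it. Each group was made up of independent clones of a single line. Of these, 3 libraries carried a sample label, Parental 1, Resistant 1 and Resistant 2, so that n was 1 for 5637P and 2 for 5637GR. The parental group therefore had no measured spread of its own.

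Cells cannot make the essential amino acids, and they take these up through carrier proteins in the plasma membrane. Exchangers of the SLC7 family pair with the heavy chain SLC3A2 (CD98hc) and trade an internal amino acid for an external one, whereas SLC1 and SLC38 carriers concentrate small neutral or acidic amino acids with the sodium gradient. SLC6 carriers are known above all from neurotransmitter uptake, SLC36 carriers move small amino acids with protons, and SLC43 contains facilitative carriers of branched-chain and aromatic amino acids. Rapidly dividing epithelial tumor cells are known for high levels of the leucine carrier SLC7A5 and the glutamine carrier SLC1A5.

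Total read counts on genes were 14475531 in Parental 1, 15836788 in Resistant 1 and 17461941 in Resistant 2. Reads on the mitochondrial genome made up 2.27% to 3.28% of each library. A chi-square of 55.2 per degree of freedom over 16539 genes showed that the resistant libraries differed far beyond counting error, so they were treated as 2 separate samples. All 9 epithelial and basal urothelial markers were measured. Their log2 fold changes had a median of -0.57, with 7 below 0, and 1 was called by edgeR and 2 by DESeq2. EPCAM, an epithelial surface protein, had 4017, 5519 and 5056 reads in Parental 1, Resistant 1 and Resistant 2. KRT5, the basal keratin, was lower in the resistant libraries, with 3829, 160 and 240 reads (edgeR's quasi-likelihood test, adjusted p = 0.00216). Its log2 fold change was -4.52 in these libraries, whereas the authors' means over the clones of each group gave a log2 ratio of -2.49. KRT17 had 2759, 281 and 926 reads (adjusted p = 0.129 by edgeR and 0.00225 by DESeq2), and KRT7 had 28009, 17126 and 15070 (adjusted p = 0.445 by edgeR). The summed level of the leukocyte markers was at most 0.795 counts per 1000000 (CPM) in any library, and that of the endothelial markers at most 2.02 CPM. The fibroblast markers summed to 145 to 172 CPM, almost all from COL1A1 and COL1A2, while LUM had no read in any library. Whether any of these levels bears on the transporter genes was not tested.

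Of the 54 members, 32 had enough reads to be tested, and 22 were not tested. No read fell on 6 members in any of the 3 libraries, namely SLC6A3, SLC6A12, SLC6A18, SLC6A19, SLC36A3 and SLC38A8. A count of 0 allows up to 3 reads, which is 0.213, 0.183 and 0.173 CPM in Parental 1, Resistant 1 and Resistant 2 (counting error only). The other 16 had at most 7 reads in a library, a value reached by SLC6A20 in Resistant 2. More than in any other family were untested in SLC6, 12 of its 18 members, among them the transporters of dopamine (SLC6A3), serotonin (SLC6A4) and noradrenaline (SLC6A2). SLC6A14, a broad carrier of neutral and cationic amino acids, had 0, 0 and 2 reads. The cystine and dibasic amino acid pair of kidney and gut was also at the floor, with 0, 1 and 2 reads for its heavy chain SLC3A1 and 0, 2 and 2 reads for its light chain SLC7A9. By contrast, all 3 members of SLC43 and 8 of 10 members of both SLC7 and SLC38 were tested.

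Levels were compared between genes as FPKM, the reads per kilobase of gene length and per 1000000 reads. SLC7 held the largest summed level of the 7 families, with 366 FPKM in Parental 1, 235 in Resistant 1 and 295 in Resistant 2. SLC3 followed in the parental library with 187 FPKM, against 128 and 133 FPKM in the resistant libraries. SLC1 held 153 FPKM in Parental 1, 134 in Resistant 1 and 235 in Resistant 2, and SLC38 held 142, 154 and 165 FPKM. The remaining families were lower in every library: SLC6 summed to 56.4 to 70.1 FPKM, SLC43 to 29.9 to 48.6 FPKM and SLC36 to 5.60 to 6.63 FPKM. The sum over all 54 members was 945 FPKM in Parental 1, 749 in Resistant 1 and 953 in Resistant 2, so that the 2 resistant libraries lay farther from each other than Resistant 2 lay from the parental library. With 1 parental library, no test of these sums was made.

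**Figure D1:**
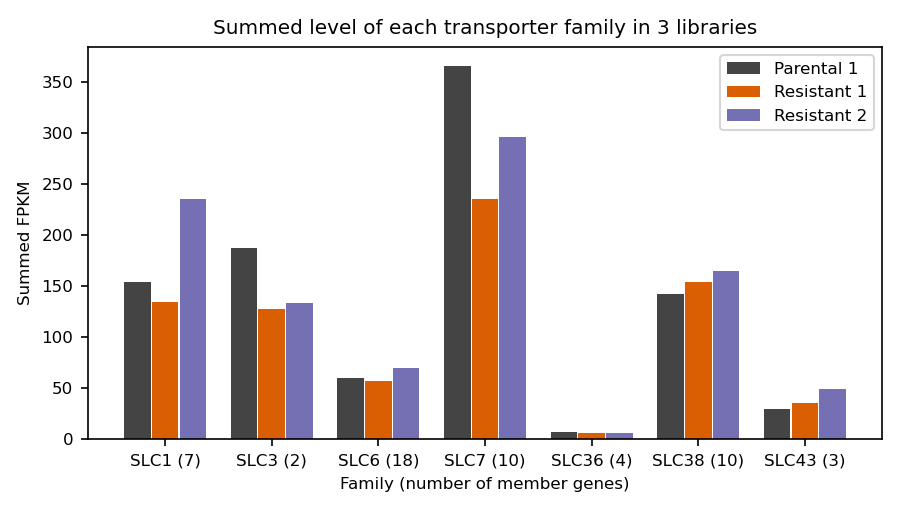
Summed FPKM of each transporter family (y axis, from 0) in the 3 labelled libraries (bars), with the number of member genes in brackets on the x axis. SLC7 is the tallest in every library, and SLC1 stands at 235 FPKM in Resistant 2 against 153 in Parental 1 and 134 in Resistant 1.

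A few genes carried most of this level. SLC7A5, SLC3A2 and SLC1A5 together made up 64.6% of the members' FPKM in Parental 1, 54.5% in Resistant 1 and 57.7% in Resistant 2. The 10 members with the highest mean FPKM made up 88.1% to 91.6%. SLC7A5 stood first in all 3 libraries, with 320, 196 and 229 FPKM in Parental 1, Resistant 1 and Resistant 2. Next came SLC3A2 with 187, 128 and 133 FPKM and SLC1A5 with 103, 84.2 and 188 FPKM, and their order was exchanged in Resistant 2. The following 7 genes were SLC38A2, SLC1A3, SLC38A10, SLC38A1, SLC7A1, SLC6A8 and SLC43A3, all between 20.6 and 59.0 FPKM. Of these, SLC38A2 lay above the others in every library, with 54.0, 59.0 and 56.9 FPKM. The ranges of the other neighbours overlapped, and no firm order was seen among them. A level of at least 1 FPKM in all 3 libraries was found for 25 members, and SLC7A7, SLC7A8 and SLC7A10 were tested but lay under 1 FPKM in every library.

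**Figure D2:**
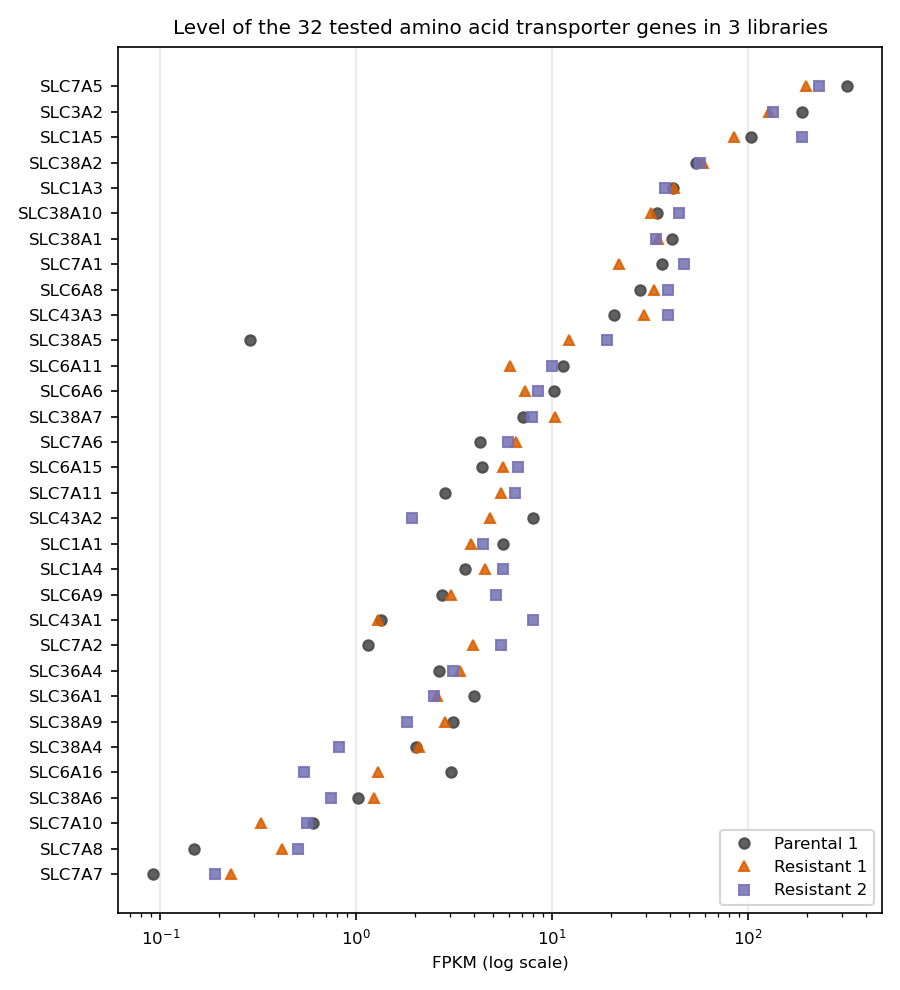
FPKM (x axis, log scale) of the 32 tested members in Parental 1 (circles), Resistant 1 (triangles) and Resistant 2 (squares), ordered by the mean over the 3 libraries. SLC7A5 is highest in each library, and the parental point of SLC38A5, at 0.285 FPKM, lies far to the left of both resistant points at 12.1 and 19.0 FPKM.

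Gene by gene, resistant and parental cells were compared with edgeR's quasi-likelihood test across all 15643 tested genes, in which the single parental library is assumed to vary as the resistant libraries do. At an adjusted p under 0.05, 91 genes were called (0.582%), of which 21 were higher (0.134%) and 70 lower (0.447%) in 5637GR. With DESeq2's size factors in place of edgeR's TMM scaling, 178 genes were called, 62 higher and 116 lower. Among the 32 tested members 1 was called under either scaling, SLC38A5, and it was higher. Without the filter on low counts edgeR called no gene at all, and SLC38A5 had an adjusted p of 0.726. At an unadjusted p under 0.05, 5 members stood out, against 9.56% of all tested genes: SLC38A5, SLC7A2 and SLC7A11 were higher (background 4.65%), and SLC6A16 and SLC43A2 were lower (background 4.91%). DESeq2 called 2 members, SLC38A5 and SLC7A2, both higher, where it called 1.63% of 15036 genes, 0.798% higher and 0.831% lower. The median log2 fold change of the tested members was 0.07, with quartiles of -0.49 and 0.49. Over all tested genes it was 0.03, with quartiles of -0.33 and 0.39. Thus the middle of the families lay near the middle of the transcriptome, with 17 members above 0 and 15 below.

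Counted without a model, 5 of the 32 members with at least 10 reads in a library lay at least 2-fold from the parental library in both resistant libraries, beside 9.19% of 15860 genes. Higher were SLC38A5, SLC7A2, SLC7A8 and SLC7A7 (background 5.47%), and lower was SLC6A16 (background 3.72%). When Resistant 1 was left out, 9 of the 32 members met the same fold (background 19.6%), and when Resistant 2 was left out, 5 did (background 15.3%). Both resistant libraries lay above Parental 1 in 14 of the tested members (background 35.2%) and below it in 13 (background 34.5%), and in the other 5 the resistant libraries fell on either side of it.

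**Figure D3:**
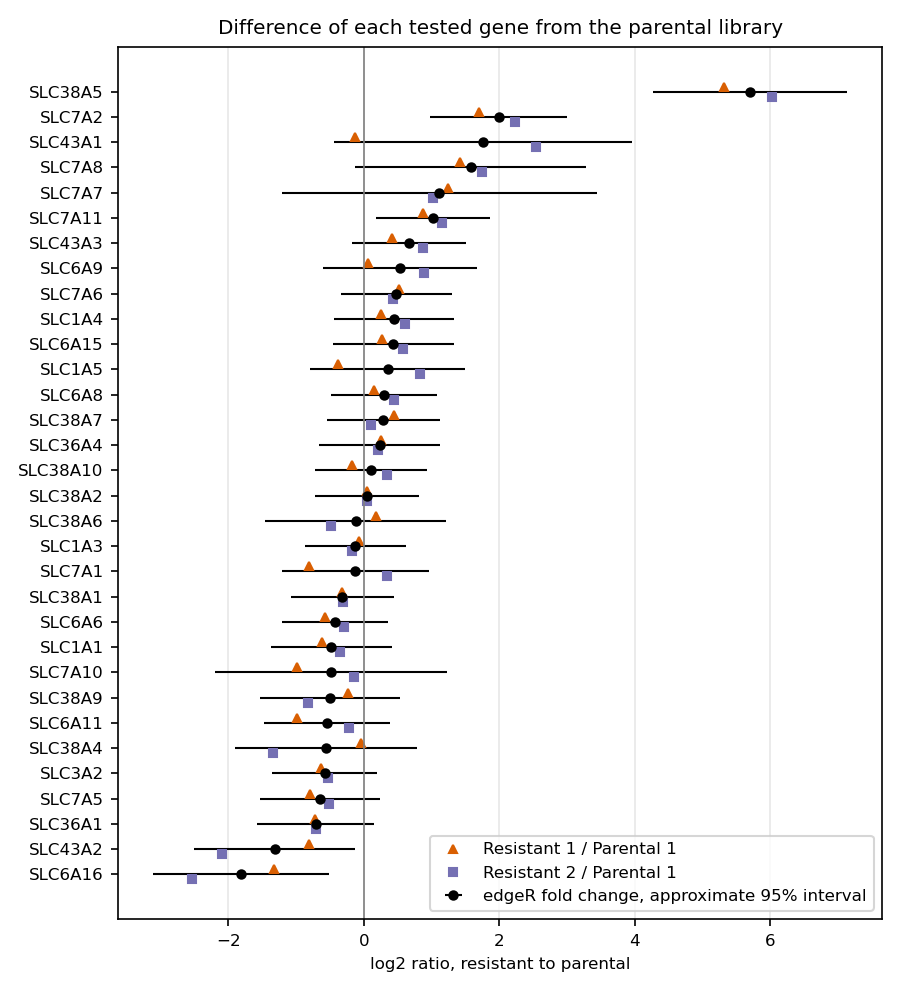
Log2 ratio of resistant to parental level (x axis) for the 32 tested members, with Resistant 1 as triangles, Resistant 2 as squares and the edgeR log2 fold change as circles with an approximate 95% interval. SLC38A5 lies apart at 5.70, and most other intervals include 0.

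SLC38A5 (ENSG00000017483; chrX:48316920-48328644 in hg19, minus strand) encodes SNAT5, a sodium-coupled carrier of glutamine, asparagine, histidine and serine that can run in both directions. It had 11 reads in Parental 1, 510 in Resistant 1 and 885 in Resistant 2, or 0.781, 31.2 and 51.0 CPM. Both resistant libraries were far above the parental one, by 39.9-fold and 65.3-fold. The edgeR log2 fold change was 5.70 ± 0.63 (SE), with an adjusted p of 0.0072. The median log2 fold change of genes on chromosome X was -0.02. In FPKM, SLC38A5 amounted to 0.00529 of SLC38A2 in Parental 1 and to 0.205 and 0.335 of it in Resistant 1 and Resistant 2.

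For this gene the parental library lay far below the mean of its group. The table also holds the authors' mean per group, which pools the parental clones and the resistant clones after scaling for depth. That mean was 461 for SLC38A5 in the parental group and 772 in the resistant group, a log2 ratio of 0.74. Parental 1 was put on the scale of its group's mean by the median ratio over genes with a mean of at least 50. It then stood at 0.0245 of that mean for SLC38A5. A parental library under 0.25 times the mean occurred in 2 of the 29 members with a mean of at least 50, SLC38A5 and SLC7A8, and in 0.145% of 11701 genes. Under 0.5 times the mean, SLC43A1 was the third (background 0.564%). The size of the difference in SLC38A5 therefore applies to the labelled libraries and was not shared by the group means. Which parental clone stood apart cannot be told, since the other columns of counts carried no sample label and were not used.

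SLC7A8 (LAT2), a carrier of large and small neutral amino acids, went further and had opposite signs in the 2 kinds of value. It had 9, 28 and 37 reads in Parental 1, Resistant 1 and Resistant 2, which are low counts, and an edgeR log2 fold change of 1.58 ± 0.75 (SE) with an adjusted p of 0.568. The authors' means were 162 for the parental and 23.7 for the resistant group, a log2 ratio of -2.72. Parental 1 stood at 0.057 of its group's mean. The labelled parental library was thus the lowest of the 3, whereas the mean of its group was the higher of the 2.

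Such reversals were also seen elsewhere, although with small values. Besides SLC7A8, the sign of the log2 ratio of the means was opposite to that of the libraries in SLC1A5, SLC38A2, SLC6A8 and SLC7A6. Over the 31 members whose group means averaged at least 10, 11 were higher and 20 lower in the resistant group, with a median log2 ratio of -0.19 against 0.01 over 14630 genes. None of them was at least 2-fold higher (background 3.21%), and 3 were at least 2-fold lower, SLC7A8, SLC6A16 and SLC38A4 (background 3.15%). The authors' means carry no error here, and these comparisons were not tested.

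**Figure D4:**
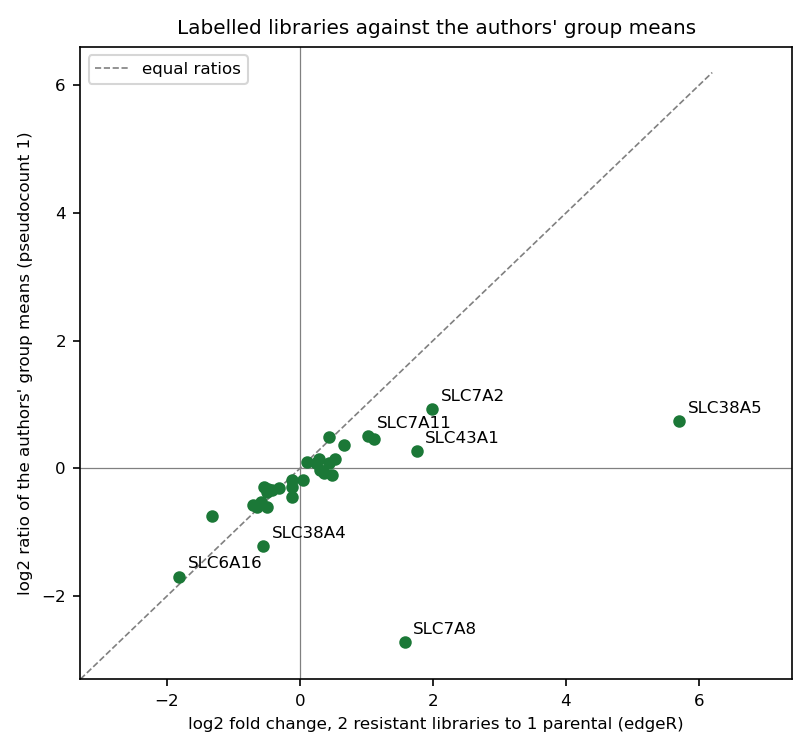
Log2 ratio of the authors' group means (y axis, pseudocount 1) against the edgeR log2 fold change of the 3 labelled libraries (x axis) for the tested members, with equal ratios on the dashed line. SLC38A5 lies at 5.70 on the x axis and 0.74 on the y axis, and SLC7A8 at 1.58 and -2.72, while SLC6A16 lies near the line at -1.81 and -1.70.

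The leucine exchanger and its heavy chain were the most abundant pair and did not pass the test. SLC7A5 (LAT1; chr16:87863629-87903094 in hg19, minus strand) imports leucine and other large neutral amino acids. It had 21026, 14099 and 18157 reads in Parental 1, Resistant 1 and Resistant 2. Both resistant libraries lay below the parental one, with a log2 fold change of -0.65 ± 0.39 (SE) and an adjusted p of 0.681. SLC3A2, which carries the light chains to the cell surface, had 6502, 4851 and 5578 reads and a log2 fold change of -0.58 ± 0.34 (SE), with an adjusted p of 0.669. Here the group means were close to the libraries, with log2 ratios of -0.60 for SLC7A5 and -0.53 for SLC3A2. Some reads of SLC7A5 may be shared with its pseudogene SLC7A5P1, which had 55, 68 and 80 reads.

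The ratio of light to heavy chains moved little between the 3 libraries. The 6 light chains that pair with SLC3A2 and were tested (SLC7A5, SLC7A6, SLC7A7, SLC7A8, SLC7A10 and SLC7A11) summed to 1.75, 1.64 and 1.82 times the FPKM of SLC3A2 in Parental 1, Resistant 1 and Resistant 2. SLC7A5 alone was 97.6%, 93.8% and 94.4% of that sum. SLC7A11 (xCT), which exchanges cystine for glutamate and so feeds glutathione synthesis, was 0.860%, 2.62% and 2.66%. It had 394, 838 and 1086 reads, with both resistant libraries above the parental one. Its log2 fold change of 1.02 ± 0.37 (SE) had an unadjusted p of 0.0226 and did not pass after adjustment (adjusted p = 0.421), and the group means gave a log2 ratio of 0.51. Genes on chromosome 4, where SLC7A11 lies (chr4:139085251-139163503 in hg19, minus strand), had a median log2 fold change of 0.43, whose part in this value was not tested. The antisense gene SLC7A11-AS1, which overlaps it, had 2, 7 and 12 reads.

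Other light chains were minor. SLC7A6, an exchanger of cationic for neutral amino acids, had 392, 652 and 654 reads and a log2 fold change of 0.48 ± 0.36 (SE; adjusted p = 0.767). Its gene overlaps SLC7A6OS on the opposite strand (158, 188 and 197 reads), and whether the library kept strand was not settled by the sources. SLC7A7, its near relative, had 4, 11 and 10 reads and a log2 fold change of 1.11 ± 1.02 (SE; adjusted p = 0.834). SLC7A10, a carrier of small neutral amino acids and D-serine, had 17, 10 and 19 reads, or 1.21, 0.611 and 1.09 CPM, and did not pass the test (adjusted p = 0.919).

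Among the cationic carriers, which work without a heavy chain, the 2 main genes went separate ways. SLC7A2 (CAT2), a carrier of arginine, lysine and ornithine, had 126 reads in Parental 1, 475 in Resistant 1 and 728 in Resistant 2, or 3.25-fold and 4.69-fold more in CPM. Its log2 fold change was 1.99 ± 0.44 (SE). It did not pass edgeR's test (adjusted p = 0.130) and passed DESeq2's (adjusted p = 0.00788), and the group means gave a log2 ratio of 0.92. SLC7A1 (CAT1), the widespread arginine carrier, had 3858, 2546 and 6024 reads, so that Parental 1 lay between the resistant libraries. Its log2 fold change was -0.12 ± 0.47 (SE; adjusted p = 0.977). At FPKM values of 36.3, 21.9 and 47.0, SLC7A1 remained well above SLC7A2, which had 1.14, 3.93 and 5.46 FPKM.

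In SLC1, 4 of 7 members were tested and none was called. SLC1A5 (ASCT2; chr19:47278140-47291851 in hg19, minus strand), an exchanger of glutamine and other neutral amino acids, had 4293, 3844 and 9446 reads in Parental 1, Resistant 1 and Resistant 2. Only Resistant 2 was high, and the log2 fold change was 0.35 ± 0.50 (SE; adjusted p = 0.912). SLC1A4 (ASCT1), the related carrier of alanine, serine and cysteine, had 301, 415 and 568 reads (log2 fold change 0.44 ± 0.39, SE). Of the glutamate carriers, SLC1A3 (EAAT1) had 2493, 2754 and 2721 reads, and SLC1A1 (EAAT3) 300, 227 and 289. Their log2 fold changes were -0.12 ± 0.33 and -0.48 ± 0.39 (SE), and the adjusted p values 0.964 and 0.801. Measured as FPKM, SLC1A3 was at 37.4 to 41.7, above SLC1A1 at 3.85 to 5.57 in every library.

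Apart from SLC38A5, no SLC38 carrier passed the test. SLC38A2 (SNAT2), a carrier of small neutral amino acids that is known to be induced by amino acid shortage, had 3819, 4564 and 4857 reads, and its CPM values of 271, 279 and 280 were almost level. The approximate 95% interval of its log2 fold change ran from -0.72 to 0.81, so a change within these bounds was not excluded. SLC38A1 (SNAT1), a carrier of glutamine and alanine, had 4762, 4407 and 4752 reads (log2 fold change -0.32 ± 0.33, SE; adjusted p = 0.866). SLC38A10 had 2124, 2181 and 3309 reads and a log2 fold change of 0.10 ± 0.36 (SE). On the lysosome, SLC38A9, the arginine sensor of the mTORC1 pathway, had 182, 180 and 127 reads (log2 fold change -0.50 ± 0.45, SE), and SLC38A7, an exporter of glutamine, had 469, 743 and 623 (log2 fold change 0.29 ± 0.37, SE). SLC38A6 had 36 to 54 reads.

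SLC38A1, SLC38A2 and SLC38A4 lie side by side on chromosome 12 within 649 kb, where the median log2 fold change of all genes was -0.36. The neighbours did not share a pattern. SLC38A4 (SNAT4) had 111, 125 and 54 reads, with Resistant 1 level with the parental library and Resistant 2 lower, whereas SLC38A1 and SLC38A2 hardly differed between the resistant libraries. SLC43A3 and SLC43A1 lie within 109 kb on chromosome 11, and SLC7A7 and SLC7A8 within 410 kb on chromosome 14. In 5 further groups of adjacent members at most 1 gene was tested, and SLC6A19, SLC6A18 and SLC6A3 on chromosome 5 were all at 0.

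SLC6 contributed the only member that was at least 2-fold lower in both resistant libraries. SLC6A16 (chr19:49792895-49828482 in hg19, minus strand), an orphan carrier with no established substrate, had 132 reads in Parental 1, 61 in Resistant 1 and 28 in Resistant 2. The resistant libraries were 2.51-fold and 5.81-fold lower. The log2 fold change of -1.81 ± 0.57 (SE) did not pass (unadjusted p = 0.0119, adjusted p = 0.330), and the group means of 145 and 43.9 gave a log2 ratio of -1.70. SLC6A8, the creatine carrier and the most abundant SLC6 gene, had 1527, 1967 and 2559 reads (log2 fold change 0.30 ± 0.34, SE). SLC6A6, the taurine carrier, had 961, 751 and 968 reads, and SLC6A11, a GABA carrier, had 706, 415 and 751. Their log2 fold changes were -0.42 ± 0.34 and -0.55 ± 0.41 (SE), with adjusted p values of 0.795 and 0.762. SLC6A9, the glycine carrier, had 124, 150 and 283 reads, and SLC6A15, a carrier of branched-chain amino acids and proline, had 267, 373 and 492. CCDC24, which overlaps SLC6A9 on the opposite strand, had 93, 241 and 143 reads and did not follow it.

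The 3 SLC43 genes each had a pattern of their own. SLC43A2 (LAT4), a facilitative carrier of branched-chain amino acids, phenylalanine and methionine, had 377, 249 and 109 reads, both resistant libraries being lower. Its log2 fold change was -1.32 ± 0.52 (SE; unadjusted p = 0.0337, adjusted p = 0.466), and the group means gave -0.74. SLC43A1 (LAT3), with the same kind of substrates, had 50, 53 and 360 reads, so that Resistant 2 alone was high. SLC43A3, which is known to carry purine nucleobases, had 781, 1213 and 1771 reads and a log2 fold change of 0.67 ± 0.37 (SE; adjusted p = 0.635). In SLC36, SLC36A1 (PAT1), the lysosomal proton-coupled carrier, had 332, 235 and 250 reads (log2 fold change -0.71 ± 0.38, SE; adjusted p = 0.625). SLC36A4, a carrier of proline and tryptophan, had 230, 320 and 328 (log2 fold change 0.24 ± 0.39, SE).

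Several members also differed between the 2 resistant libraries. Among 29 members with at least 50 reads in 1 of them, 6 differed at least 2-fold, beside 8.10% of 12374 genes. SLC43A1 differed the most, by 6.40-fold (95% interval 4.78 to 8.71, counting error only), followed by SLC1A5 with 2.31-fold (2.23 to 2.40) and SLC7A1 with 2.23-fold (2.13 to 2.33), all higher in Resistant 2. Higher in Resistant 1 were SLC38A4 by 2.46-fold (1.77 to 3.45), SLC43A2 by 2.43-fold (1.93 to 3.07) and SLC6A16 by 2.31-fold (1.46 to 3.76). The median log2 ratio of Resistant 2 to Resistant 1 was 0.28 over the tested members, with 22 above 0 and 10 below, and -0.01 over all tested genes. The counting interval of the ratio excluded 1 in 24 of the 32 members, and in 59.7% of all tested genes. Chromosome 19, with SLC1A5, had a median log2 ratio to Parental 1 of -0.28 in Resistant 1 and 0.26 in Resistant 2, and chromosome 13, with SLC7A1, had -0.33 and 0.12. SLC6A16 also lies on chromosome 19 but was higher in Resistant 1. SLC43A2, also higher in Resistant 1, lies on chromosome 17, with medians of 0.13 and 0.20. Chromosome 12, with SLC38A4, had -0.19 and -0.57, and chromosome 11, with SLC43A1, had -0.38 and -0.30. The part of these shifts in any of these genes was not tested.

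**Figure D5:**
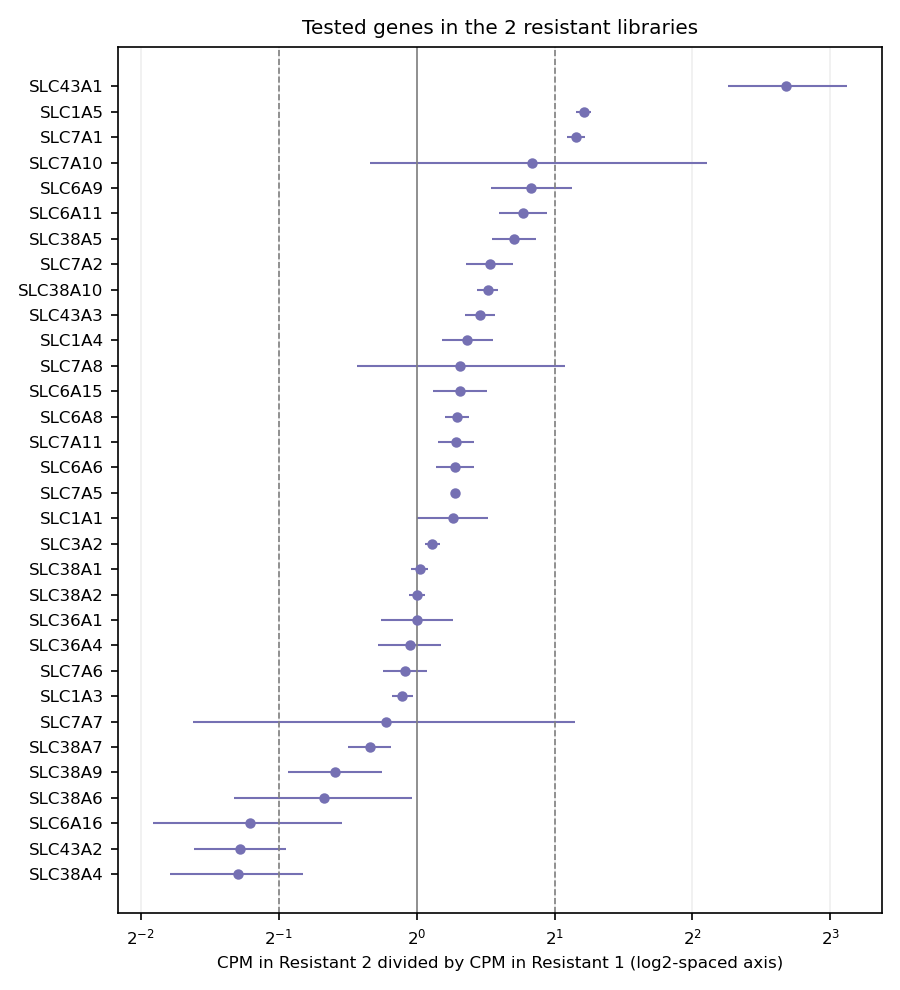
CPM in Resistant 2 divided by CPM in Resistant 1 (x axis, log2 spaced) for the 32 tested members, with 95% intervals for counting error, a solid line at equal levels and dashed lines at a 2-fold difference either way. SLC43A1 lies farthest to the right at 6.40, followed by SLC1A5 at 2.31 and SLC7A1 at 2.23.

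Promoters are shown for the called gene SLC38A5, for SLC7A5 as the most abundant member and for SLC6A16 as the member that was lower in both resistant libraries, since all 3 hold the same motif. Each is the 250 bases before the transcription start, all on the minus strand, from RefSeq on GRCh38.p14, at chrX:48470261-48470510, chr16:87869508-87869757 and chr19:49325192-49325441. Capitals mark CACGTG, the E-box bound by MYC and related factors.
SLC38A5: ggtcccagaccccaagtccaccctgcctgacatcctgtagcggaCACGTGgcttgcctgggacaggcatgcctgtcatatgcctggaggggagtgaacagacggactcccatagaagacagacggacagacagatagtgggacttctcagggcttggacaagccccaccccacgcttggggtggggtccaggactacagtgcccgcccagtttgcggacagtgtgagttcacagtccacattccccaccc
SLC7A5: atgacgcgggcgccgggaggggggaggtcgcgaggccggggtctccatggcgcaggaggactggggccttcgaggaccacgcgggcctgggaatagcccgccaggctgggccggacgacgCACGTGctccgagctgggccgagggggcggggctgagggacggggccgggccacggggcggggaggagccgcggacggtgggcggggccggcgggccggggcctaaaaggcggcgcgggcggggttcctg
SLC6A16: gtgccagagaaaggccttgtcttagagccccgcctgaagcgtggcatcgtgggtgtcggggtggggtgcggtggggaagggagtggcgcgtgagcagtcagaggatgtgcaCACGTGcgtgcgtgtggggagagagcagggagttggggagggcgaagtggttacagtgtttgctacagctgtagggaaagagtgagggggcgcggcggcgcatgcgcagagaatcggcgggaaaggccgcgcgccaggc

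The motif lies 206 to 201 bases before the start in SLC38A5, 130 to 125 bases before it in SLC7A5 and 139 to 134 bases before it in SLC6A16. CpG dinucleotides numbered 7 in the 300 bases around the start of SLC38A5, 44 in those of SLC7A5 and 26 in those of SLC6A16. RefSeq promoters were found for 27 of the 32 tested members, 48 promoters in all, since some genes have several starts. The tested members without an entry were SLC7A11, SLC7A2, SLC43A3, SLC6A6 and SLC6A15, and no motif could be searched in them. CACGTG, which reads the same on both strands, was present in 18.8% of the 48 promoters and in 7.26% of all 35116 promoters of 300 bases. It lay in 9 tested members, the genes shown above and SLC1A5, SLC36A1, SLC38A7, SLC43A1, SLC7A7 and SLC7A8. The element TGATGNAA, bound by C/EBP and ATF factors such as ATF4 and searched on both strands, was in 12.5% against 3.62%, in the genes SLC1A3, SLC1A4, SLC1A5, SLC38A1, SLC3A2 and SLC7A1. TGACNNNGC, the core of the antioxidant response element, was in 14.6% against 13.3%, and the GC box GGGCGG in 64.6% against 45.0%. A ratio of observed to expected CpG of at least 0.6 was found in 66.7% of the promoters of tested members, in 37.5% of those of untested members and in 48.9% of all. These shares describe letters only, and their differences were not tested.

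The wider pathway was read from 5 lists of other genes, and edgeR called none of their tested members. Among 27 genes of amino acid sensing and of the GCN2-ATF4 branch, which answers amino acid shortage, 6 had an unadjusted p under 0.05, 5 higher and 1 lower, beside 9.56% of all tested genes (4.65% higher and 4.91% lower). Their median log2 fold change was 0.24, against 0.03 over all tested genes. ATF4 itself had 3263, 3325 and 4038 reads in Parental 1, Resistant 1 and Resistant 2. TRIB3, of the same branch, had 102, 295 and 336 reads and the leucine sensor SESN2 298, 673 and 742 (adjusted p = 0.338 and 0.445 in edgeR's test). The other genes with an unadjusted p under 0.05 were TFEB, MITF and RRAGD, which were higher, and RRAGA, which was lower. RRAGD rested on 1, 8 and 32 reads.

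Of 26 genes of amino acid synthesis and breakdown, 2 had an unadjusted p under 0.05, both lower, beside the same background of 9.56%, and the median log2 fold change was 0.09. GLUL, the enzyme that makes glutamine, had 10058, 6662 and 5745 reads, and PSAT1, an enzyme of serine synthesis, had 592, 353 and 244 (adjusted p = 0.437 and 0.345 in edgeR's test). ASNS, asparagine synthetase, had 413, 565 and 1075 reads and was high in Resistant 2 alone. None of 12 genes of glutathione and cystine use had an unadjusted p under 0.05, among them the glutathione synthesis genes GCLC with 421, 666 and 600 reads and GCLM with 269, 417 and 280. Among 15 carriers of other families, the peptide carrier SLC15A1 alone did, with 23, 59 and 121 reads (adjusted p = 0.466 in edgeR's test). None of 5 partner proteins of carriers did. DESeq2 called no gene of these 5 lists.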

How the data were processed

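Libraries of poly-A RNA from 5637P and 5637GR clones were sequenced for the authors, who deposited 1 table of genes. It holds the read count of each library, without normalization, and the FPKM that the authors computed from it. Tests on the values showed FPKM to be the count per gene length and per summed count of the library. It also holds a group signal, the authors' mean of size-factor-scaled counts, and columns with the authors' fold changes and p-values, which were not used. The submitters' processing notes name CASAVA 1.8 and hg19. The aligner, counter and annotation are not given in the sources used here. Columns with no matching sample label (3 of counts and 3 of FPKM, 6 in all) were not used. Since the remaining libraries are 1 parental and 2 resistant clones, the only spread measured is that between the 2 resistant clones. In edgeR each gene's spread is moderated by that of all tested genes, so its p-value does not rest on these clones alone. The single parental clone is assumed to vary like them, and its own spread was not measured.

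Counts were tested with edgeR 4.0.16 in R 4.3.3 (glmQLFit and glmQLFTest, TMM, filterByExpr, Benjamini-Hochberg adjusted p under 0.05 over all tested genes). DESeq2 1.42.0 was the alternative, and genes it left without an adjusted p were not counted. Standard errors were derived from the log2 fold change and its F statistic and are approximate, as are the 95% intervals, which use 8.49 degrees of freedom. CPM are counts per 1000000 of TMM-scaled library size (factors 0.974, 1.03 and 0.995). Ratios between 2 libraries carry exact binomial 95% intervals, which cover counting error only, and a count of 0 was taken to allow 3 reads. The log2 ratio of group means used a pseudocount of 1. The test was also run on simulated counts with changes planted in well-read genes. There the parental library was given the same spread as the resistant libraries. That run therefore cannot check the assumption made for the single parental library. Figures and tables were made with Python 3.11.15, pandas 2.3.3, scipy 1.17.1 and matplotlib 3.10.9. Promoters came from RefSeq (GRCh38.p14), which had entries for 42 of the 54 members.

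Members given with values in each library were those called, those at least 2-fold from the parental library in both resistant libraries (at least 10 reads in 1 library), the 10 with the highest mean FPKM, those at least 2-fold apart between the resistant libraries (at least 50 reads), and 20 carriers chosen for their known roles. SLC7A9, SLC7A10, SLC38A7, SLC6A11, SLC6A15 and SLC36A4, and the genes of other lists, were added after their values were seen. The members, the lists and the tests were chosen with earlier results of these data known. Alternatives changed the scaling, the filter, the dispersion method, the tool, the fold threshold and the libraries.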

Additional observations from a re-analysis of the deposited data

How the results depend on the processing

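With 1 labelled parental library, there was no leave-one-out test of calls, because 1 library against 1 leaves no residual degrees of freedom, and the parental library cannot be left out. No paired analysis was possible because the groups share only replicate number 1. Depth limits the 22 members with too few reads to test, and SLC7A7, SLC7A8 and SLC7A10 among those tested.

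The 91 genes called became 178 with DESeq2's size factors, 137 with the legacy quasi-likelihood method, 245 with DESeq2's test (120 higher and 125 lower) and 0 without a filter on low counts. This last fit left 1261 genes and 4 members at an unadjusted p under 0.05, and in it SLC38A5 stood at 5.70 on the log2 scale (adjusted p = 0.726). An unfiltered fit with the legacy method, chosen after seeing the data, called 534 genes (273 higher and 261 lower). The 1 member called became 0 without a filter (0 higher), 2 with DESeq2 (2 higher) and 3 in the unfiltered legacy fit (2 higher and 1 lower, where none was lower before), namely SLC38A5, SLC7A2 and SLC6A16. The 5 members at least 2-fold from the parental library became 16 with no minimum of reads and 8 at 1.5-fold. They became 5 to 9 when a resistant library was left out. By the authors' means (also chosen after seeing the data), 3 members had group means at least 2-fold apart, all lower. Of these, SLC6A16 was also lower among the 5, SLC7A8 was higher among them and SLC38A4 was not among them. The median log2 fold change of 0.07 became -0.18 by the authors' means and lay between -0.06 and 0.16 when a resistant library was left out. By the authors' means, 10 of 26 log2 fold changes of single members moved by more than the spread between the resistant libraries.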
